A study of Homo sapiens with 36 samples.

Results

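Remodeler genes were followed here across 36 RNA-seq libraries of U2OS-GRα cells. The set holds 37 genes: the subunits of the SWI/SNF complexes, the ISWI ATPases with their partners, the ATPases of the INO80 and SWR1 type complexes, and 4 other ATPases of the SNF2 family. They were taken by gene symbol alone, and 36 of the 37 had a row in the count table of 15186 genes. SMARCB1 was not analysed here.

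Chromatin remodelers use the energy of ATP to slide, evict or exchange nucleosomes, and so change which DNA is open to transcription factors. SWI/SNF complexes carry one of the mutually exclusive ATPases BRM (SMARCA2) and BRG1 (SMARCA4), and are sorted into canonical BAF (with ARID1A or ARID1B), PBAF (with ARID2 and PBRM1) and non-canonical BAF (with BRD9). ISWI complexes space nucleosomes, while INO80, SRCAP and EP400 complexes are linked to the histone variant H2A.Z. The glucocorticoid receptor (GR) is known to recruit SWI/SNF to many of its target genes.

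U2OS is a human osteosarcoma line, and the cells used were stably transfected with GRα, the hormone-responsive form of the receptor. The study transfected siRNAs in 6 conditions: siBRMsiHic5 (BRM and Hic-5), siBRMsiNS (BRM), siCHD9siHic5 (CHD9 and Hic-5), siCHD9siNS (CHD9), siHic5siNS (Hic-5) and siNSsiNS (control siRNA). Hic-5, encoded by TGFB1I1, is a LIM-domain coregulator of steroid receptors, and CHD9 is a chromodomain ATPase outside the gene set. At 48 h after transfection the cells received 100 nM of the glucocorticoid dexamethasone (dex) or ethanol (vehicle) for 8 h. Each of the 12 groups holds 3 libraries, which the labels describe as biological replicates of different days, so the tests measure the spread between those days. All groups share the GRα transgene and the lipid transfection. Whether the line is 1 clone is not given in the sources used here.

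Library totals ran between 27442282 and 47148257 counts, and levels are scaled by the upper quartile to CPM, counts relative to a library of fixed size. TGFB1I1 fell in the 3 vehicle groups with Hic-5 siRNA, to 0.183-fold in siBRMsiHic5, 0.262-fold in libraries labelled siCHD9siHic5 and 0.248-fold in siHic5siNS. CHD9 read 59.5, 51.5 and 69.4 CPM in the vehicle siCHD9siNS libraries but 143, 109.6 and 116 CPM in those labelled siCHD9siHic5, against 96.6, 78.1 and 91.1 CPM in siNSsiNS. The libraries labelled siCHD9siHic5 therefore stood above siNSsiNS in the gene they were meant to lower (log2 difference 0.47 ± 0.18, SE, edgeR adjusted p = 0.0292), and they are called by their label throughout. Under dex CHD9 read 89.2, 58.2 and 83.7 CPM in siCHD9siNS, against 97.4, 91.6 and 81.5 CPM in siNSsiNS, so that the groups overlapped and the log2 difference of -0.23 ± 0.18 (SE, edgeR adjusted p = 0.411) did not pass. CHD9 fell in siBRMsiHic5, with a log2 difference of -0.97 ± 0.18 (SE, edgeR adjusted p = 0.000107). The mesenchymal markers VIM, FN1, SPARC, CD44 and RUNX2 had at least 13.0 CPM in all 36 libraries, the epithelial EPCAM, CDH1 and KRT5 and the endothelial PECAM1 and CDH5 stayed at or below 4.84 CPM, and KRT18 ran between 103 and 455 CPM. Ribosomal RNA took 0.324 to 0.868% of the counts in the libraries of both siCHD9 conditions. In vehicle it took 0.511, 4.82 and 5.76% in siBRMsiHic5, 0.612, 3.95 and 6.98% in siBRMsiNS and 0.642, 0.769 and 3.44% in siHic5siNS, against 0.434, 0.430 and 5.46% in siNSsiNS (replicates 1, 2 and 3 of each).

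In the fit over all 36 libraries, each of the 5 siRNA conditions had remodeler genes called both higher and lower than in siNSsiNS. Among vehicle libraries, siBRMsiHic5 moved 28 of the 36 genes (8 higher, 20 lower) at an adjusted p under 0.05 in edgeR's quasi-likelihood test, where 48.9% of all 15179 tested genes passed. Its 20 lower members stand beside 24.6% of all genes called lower, and the median log2 difference was -0.31 over the members and -0.01 over all genes. Libraries labelled siCHD9siHic5 moved 18 members (10 higher, 8 lower), and 52.6% of all genes passed. With siCHD9siNS 17 members passed (6 higher, 11 lower) beside 32.3% of all genes, and with siHic5siNS 19 (13 higher, 6 lower) beside 53.1%. The siHic5siNS and siCHD9siHic5 counts are thus close to the share of all genes that moved. siBRMsiNS moved 6 members (2 higher, 4 lower) against 6.45% of all genes. In both siBRM conditions the lower members include SMARCA2, the target of the siRNA. The siBRMsiNS count rested on single libraries: it was 1 without siNSsiNS replicate 1, 2 without siNSsiNS replicate 2, 1 without siBRMsiNS replicate 3 and 12 without siBRMsiNS replicate 1. With only the groups compared in the fit it was 0. Over all genes, vehicle libraries did not overlap those of siNSsiNS for 58.7% in siBRMsiHic5, 62.2% in siCHD9siHic5 and 61.2% in siHic5siNS. For siCHD9siNS the share was 49.7% and for siBRMsiNS 22.7%. Lack of overlap was thus common among all genes in most of these comparisons.

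In dex libraries the same contrasts called 25 members for siBRMsiHic5 (8 higher, 17 lower; 45.5% of all genes), 17 for siCHD9siHic5 (9 and 8; 51.5%) and 20 for siHic5siNS (12 and 8; 53.6%). For siBRMsiNS 10 members passed (2 higher, 8 lower) where 11.8% of all genes did, and for siCHD9siNS 8 passed (4 each way) where 18.7% did. SMARCA2, the siRNA target, is again among the lower members of both siBRM conditions. The siBRMsiNS count in dex was 1 without siNSsiNS replicate 1, 3 without siNSsiNS replicate 2 and 6 without siBRMsiNS replicate 3. The siCHD9siNS count in dex was 3 without siNSsiNS replicate 1 or 2, and 4 without siCHD9siNS replicate 1 or 3. The 5 comparisons of each treatment share their 3 siNSsiNS libraries. A high or low siNSsiNS value therefore enters all 5. Over all genes, dex libraries did not overlap those of siNSsiNS for 57.9% in siBRMsiHic5, 63.1% in siCHD9siHic5 and 62.5% in siHic5siNS. For siCHD9siNS the share in dex was 42.4% and for siBRMsiNS 25.9%. Whether counting used the strand is not given in the sources used here, so reads of members that overlap another gene may be shared with it.

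**Figure D1:**
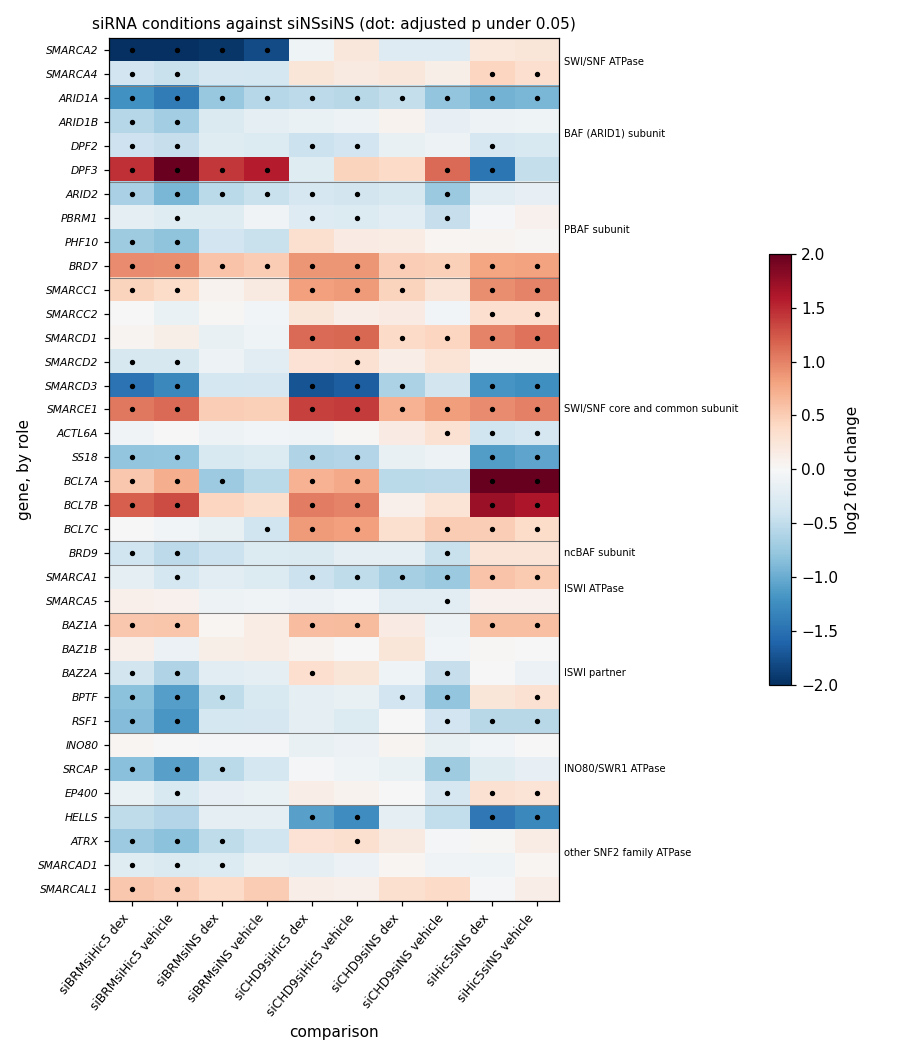
Log2 fold change of each of the 36 remodeler genes (rows, grouped by role) in the 5 siRNA conditions against siNSsiNS, for dex and vehicle libraries (columns). Red is higher and blue lower than siNSsiNS, the colour scale stops at 2 and -2 on the log2 scale (BCL7A in siHic5siNS lies beyond it, at 2.97 in vehicle), and dots mark an adjusted p under 0.05. ARID1A is blue and BRD7 red in all columns, while SMARCA2 is deep blue in the 4 siBRM columns.

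The ATPase targeted by the BRM siRNA fell to a fraction of its control level, while its paralogue stayed the more abundant of the pair. SMARCA2, which encodes BRM, read 8.35, 8.52 and 5.79 CPM in the vehicle siBRMsiHic5 libraries, against 27.9, 27.2 and 35.8 CPM in the vehicle siNSsiNS libraries. The vehicle siBRMsiNS libraries held 7.41, 9.57 and 9.30 CPM. All 6 siBRM libraries lay below every siNSsiNS library, with log2 differences of -2.01 ± 0.18 (SE, edgeR adjusted p = 1.14e-08) for siBRMsiHic5 and -1.79 ± 0.18 (SE, edgeR adjusted p = 9.78e-07) for siBRMsiNS. When only the 6 libraries of siBRMsiNS and siNSsiNS were fitted, the second of these had an adjusted p of 0.166. The vehicle levels of SMARCA2 were 35.2, 34.8 and 36.8 CPM in libraries labelled siCHD9siHic5, 22.2, 21.6 and 32.001 CPM in siCHD9siNS and 38.1, 33.4 and 36.1 CPM in siHic5siNS. None of these 3 groups passed the test against siNSsiNS, with adjusted p of 0.258, 0.246 and 0.235. SMARCA2 in vehicle siBRMsiNS was not called in 1 of 10 other settings.

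Under dex SMARCA2 read 8.98, 9.63 and 8.43 CPM in siBRMsiHic5 and 8.75, 9.81 and 10.4 CPM in siBRMsiNS, against 38.7, 29.97 and 42.8 CPM in siNSsiNS. The groups again did not overlap, and the log2 differences were -2.04 ± 0.18 (SE, edgeR adjusted p = 1.81e-08) and -1.94 ± 0.18 (SE, edgeR adjusted p = 1.54e-07). The dex libraries labelled siCHD9siHic5 held 35.3, 30.5 and 39.3 CPM, those of siCHD9siNS 31.6, 25.3 and 36.1 CPM and those of siHic5siNS 41.4, 36.9 and 51.3 CPM, and each of these groups overlapped siNSsiNS.

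SMARCA4, which encodes BRG1, read 70.9, 99.6 and 81.1 CPM in the vehicle siBRMsiHic5 libraries, against 111, 108 and 123 CPM in the vehicle siNSsiNS libraries. It was lower in siBRMsiHic5 without overlap, with a log2 difference of -0.44 ± 0.13 (SE, edgeR adjusted p = 0.0071), but this was not called without siBRMsiHic5 replicate 1 (adjusted p = 0.0583) or with offsets for gene length and GC content. In siBRMsiNS the vehicle values of 75.7, 109.8 and 82.99 CPM reached into the siNSsiNS range, and the log2 difference of -0.35 ± 0.13 (SE, edgeR adjusted p = 0.0988) did not pass. siHic5siNS held 148, 150.2 and 134 CPM in vehicle and 136, 157 and 145 CPM in dex, above every siNSsiNS library of the same treatment (dex siNSsiNS 101, 103 and 122 CPM). Its log2 differences were 0.34 ± 0.13 (SE, edgeR adjusted p = 0.0343) in vehicle and 0.42 ± 0.13 (SE, edgeR adjusted p = 0.00847) in dex, and the vehicle call was lost without replicate 1 or 2 of either group (adjusted p up to 0.107). The vehicle libraries labelled siCHD9siHic5 held 129, 131 and 128 CPM and those of siCHD9siNS 129, 112 and 129 CPM, and neither group passed. In dex siBRMsiHic5 held 69.8, 102 and 79.2 CPM and overlapped siNSsiNS, with a log2 difference of -0.38 ± 0.13 (SE, edgeR adjusted p = 0.0213). The other dex groups held 78.6, 98.9 and 82.4 CPM in siBRMsiNS, 126, 133 and 127 CPM in libraries labelled siCHD9siHic5 and 125, 127 and 129.6 CPM in siCHD9siNS, with adjusted p in edgeR of 0.0971, 0.126 and 0.245. SMARCA4 in dex siHic5siNS was not called in 1 of 10 other settings. SMARCA4 in dex siBRMsiHic5 was not called without siBRMsiHic5 replicate 1 or 3 or siNSsiNS replicate 3 (adjusted p up to 0.142) or in 3 of 10 other settings.

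Per kilobase of transcript, SMARCA2 stood at 7.51 ± 1.95% of SMARCA4 in vehicle siBRMsiHic5 libraries and 8.12 ± 1.02% in siBRMsiNS, against 21.7 ± 1.86% in siNSsiNS (mean ± SD, n = 3 each). The same level ratio was 22.6 ± 0.837% in libraries labelled siCHD9siHic5, 16.7 ± 3.21% in siCHD9siNS and 20.5 ± 1.96% in siHic5siNS. The lowest siNSsiNS library, at 20.6%, lay above the highest siBRM vehicle library, at 9.66%. These are transcript levels, and how much BRM or BRG1 protein the cells held was not measured.

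**Figure D2:**
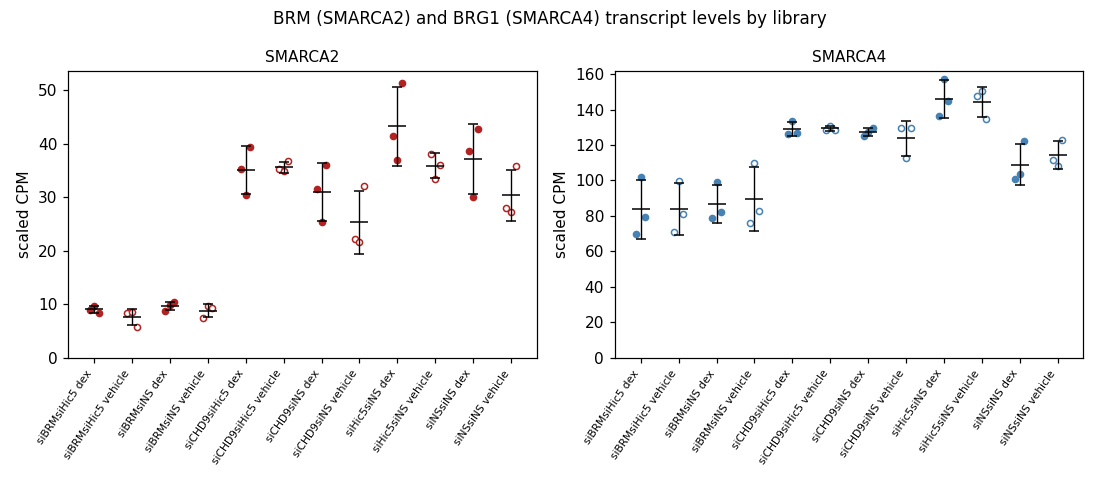
Scaled CPM of SMARCA2 (BRM, left) and SMARCA4 (BRG1, right) in each of the 36 libraries, by siRNA condition, with filled points for dex and open points for vehicle; bars give the mean and SD of 3 libraries. All 12 siBRM libraries lie at or below 10.4 CPM of SMARCA2, and the siNSsiNS libraries at or above 27.2 CPM.

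In siNSsiNS vehicle libraries the members spanned a range of levels per kilobase of transcript. ACTL6A had the highest, 49.3 ± 2.38 CPM per kb, followed by SMARCD2 at 29.99 ± 2.03 and BAZ1B at 28.6 ± 2.09. At the low end were SMARCA2 with 4.29 ± 0.671, DPF3 with 3.25 ± 0.865 and BCL7A with 3.18 ± 0.125 CPM per kb (mean ± SD, n = 3 each). Neighbours in that order overlapped in their ranges, except ACTL6A and SMARCD2.

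Among the BAF subunits ARID1A fell and DPF3 mostly rose. ARID1A encodes the large DNA-binding subunit that defines canonical BAF and is a frequent tumour suppressor. It read 76.1, 81.1 and 66.3 CPM in the vehicle siBRMsiHic5 libraries, against 227, 206 and 156 CPM in the vehicle siNSsiNS libraries, a log2 difference of -1.40 ± 0.17 (SE, edgeR adjusted p = 4.3e-07) with no overlap. In the other vehicle groups it held 175, 123 and 98.1 CPM in siBRMsiNS, 137, 125 and 139.6 CPM in libraries labelled siCHD9siHic5, 111, 108 and 122 CPM in siCHD9siNS and 113, 89.8 and 108 CPM in siHic5siNS. Their log2 differences from siNSsiNS were -0.57, -0.55, -0.79 and -0.92, all called (edgeR adjusted p at most 0.0398). The siBRMsiNS group overlapped siNSsiNS and lost its call without siNSsiNS vehicle replicate 1, siNSsiNS vehicle replicate 2, siBRMsiNS vehicle replicate 2 or siBRMsiNS vehicle replicate 3 (adjusted p up to 0.34). All 5 dex comparisons also called ARID1A lower, with log2 differences between -1.22 in siBRMsiHic5 and -0.47 in siCHD9siNS, against siNSsiNS dex levels of 216, 221 and 152 CPM. ARID1A in vehicle libraries labelled siCHD9siHic5 was not called without siNSsiNS replicate 1 (adjusted p = 0.051). ARID1A in dex siCHD9siNS was not called without siNSsiNS replicate 1 or 2 or siCHD9siNS replicate 1, 2 or 3 (adjusted p up to 0.19) or in 5 of 10 other settings.

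Its paralogue ARID1B was called in 2 comparisons, both of siBRMsiHic5. It read 95.97, 84.3 and 76.4 CPM in the vehicle siBRMsiHic5 libraries, against 156, 140.0 and 120.3 CPM in the vehicle siNSsiNS libraries, with a log2 difference of -0.70 ± 0.13 (SE, edgeR adjusted p = 0.000111) and no overlap. In dex the siBRMsiHic5 difference was -0.56 ± 0.13 (SE, edgeR adjusted p = 0.00112), and no other group passed. DPF2, a reader of acetylated histone tails, was called lower in 5 of the 10 comparisons. The vehicle siBRMsiHic5 libraries held 49.8, 54.05 and 48.7 CPM, against 74.6, 67.4 and 68.7 CPM in siNSsiNS, a separated pair with a log2 difference of -0.47 ± 0.13 (SE, edgeR adjusted p = 0.00407).

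DPF3, the paralogue of DPF2 known mainly from heart and muscle, was scarce in these cells and rose with the BRM siRNA. It read 16.2, 12.5 and 15.3 CPM in the vehicle siBRMsiHic5 libraries, against 2.61, 3.97 and 4.52 CPM in the vehicle siNSsiNS libraries. The vehicle siBRMsiNS libraries held 7.54, 9.79 and 15.6 CPM and those of siCHD9siNS 9.83, 7.53 and 7.14 CPM, so that all 9 libraries of these 3 groups exceeded every siNSsiNS library. The log2 differences were 1.98 ± 0.31 (SE, edgeR adjusted p = 1.03e-05) for siBRMsiHic5, 1.57 ± 0.30 (SE, edgeR adjusted p = 0.00737) for siBRMsiNS and 1.14 ± 0.30 (SE, edgeR adjusted p = 0.00496) for siCHD9siNS. The siBRMsiNS call was not made without siNSsiNS vehicle replicate 1 or siBRMsiNS vehicle replicate 3 (adjusted p up to 0.112). The 3 siBRMsiNS values also ran in the order of the ribosomal RNA share of their libraries (0.612, 3.95 and 6.98%). Those of vehicle siBRMsiHic5 did not (0.511, 4.82 and 5.76%), and the part of ribosomal RNA was not tested. In siHic5siNS DPF3 went the other way under dex, at 1.51, 0.980 and 1.33 CPM against 2.27, 3.34 and 4.76 CPM in siNSsiNS, a log2 difference of -1.44 ± 0.32 (SE, edgeR adjusted p = 0.000521). In vehicle the siHic5siNS libraries, with 2.68, 1.48 and 3.80 CPM, overlapped siNSsiNS and did not pass (adjusted p = 0.203).

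The PBAF subunits divided, with ARID2, PBRM1 and PHF10 called lower where they changed and BRD7 higher. ARID2, the DNA-binding subunit of PBAF, was called lower in 7 of 10 comparisons. It read 53.8, 47.9 and 40.4 CPM in the vehicle siBRMsiHic5 libraries, against 96.9, 101 and 71.1 CPM in the vehicle siNSsiNS libraries, without overlap (log2 difference -0.92 ± 0.13, SE, edgeR adjusted p = 5.3e-06). The siCHD9siNS vehicle libraries, with 48.9, 56.8 and 54.7 CPM, also lay below siNSsiNS, with a log2 difference of -0.75 ± 0.13 (SE, edgeR adjusted p = 0.000135). PBRM1, the polybromodomain subunit, read 84.5, 90.8 and 84.6 CPM in the vehicle siCHD9siNS libraries, against 125, 122 and 109 CPM in the vehicle siNSsiNS libraries. That was a separation of -0.46 ± 0.09 (SE, edgeR adjusted p = 0.000272) on the log2 scale, and 3 other comparisons called PBRM1 lower, with log2 differences of -0.24 in vehicle siBRMsiHic5, and -0.27 in vehicle and -0.26 in dex libraries labelled siCHD9siHic5. With the replicate block, the last of these had a log2 difference of -0.26 ± 0.11 (SE, blocked edgeR adjusted p = 0.053) and was not called. PBRM1 in vehicle siBRMsiHic5 was not called without siNSsiNS replicate 1 or 2 or siBRMsiHic5 replicate 3 (adjusted p up to 0.148) or in 3 of 10 other settings. PBRM1 in vehicle libraries labelled siCHD9siHic5 was not called without siNSsiNS replicate 1 (adjusted p = 0.0576) or in 1 of 10 other settings. PBRM1 in dex libraries labelled siCHD9siHic5 was not called without siNSsiNS replicate 2 or siCHD9siHic5 replicate 3 (adjusted p up to 0.133) or in 5 of 10 other settings.

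PHF10, a PHD-finger subunit, read 55.2, 54.98 and 51.3 CPM in the vehicle siBRMsiHic5 libraries, against 87.1, 122 and 74.3 CPM in the vehicle siNSsiNS libraries. All siBRMsiHic5 values lay below siNSsiNS, with a log2 difference of -0.81 ± 0.18 (SE, edgeR adjusted p = 0.000451), and the dex libraries gave -0.72 ± 0.18 (SE, edgeR adjusted p = 0.00165). BRD7, a bromodomain subunit of PBAF, was the reverse case and was called higher in all 10 comparisons. It read 126, 116 and 105 CPM in the vehicle siBRMsiHic5 libraries, against 56.9, 52.9 and 72.1 CPM in the vehicle siNSsiNS libraries, a log2 difference of 0.93 ± 0.16 (SE, edgeR adjusted p = 3.69e-05). The siHic5siNS vehicle libraries held 105, 103 and 109 CPM, those labelled siCHD9siHic5 110.1, 110.3 and 116 CPM, and siCHD9siNS 90.3, 72.8 and 89.04 CPM. Each of those groups lay above all siNSsiNS libraries. siBRMsiNS, with 61.5, 95.2 and 103 CPM, overlapped siNSsiNS, and its adjusted p was 0.0498 in edgeR. BRD7 was higher in the siBRMsiNS libraries with more ribosomal RNA (0.612, 3.95 and 6.98%). In vehicle siBRMsiHic5 (0.511, 4.82 and 5.76%) the order was the reverse, and the part of ribosomal RNA was not tested. The gene ADCY7 lies on the opposite strand over 42.3% of the exonic bases of BRD7. ADCY7 itself fell in siHic5siNS, with a log2 difference of -0.76 ± 0.15 (SE, edgeR adjusted p = 0.000153), and in siBRMsiHic5 it did not pass (adjusted p = 0.252). The annotation also names 5 pseudogenes of BRD7. BRD7 in vehicle siBRMsiNS was not called without siNSsiNS replicate 1 or 2 or siBRMsiNS replicate 2 or 3 (adjusted p up to 0.379) or in 7 of 10 other settings. BRD7 in vehicle siCHD9siNS was not called without siNSsiNS replicate 1 or 2 or siCHD9siNS replicate 1 or 3 (adjusted p up to 0.122).

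Of the core and common subunits, SMARCC1, SMARCE1, BCL7A and BCL7B rose and SMARCD3 and SS18 fell in the 3 conditions with Hic-5 siRNA, while SMARCD1 and BCL7C rose in siHic5siNS and siCHD9siHic5. Some of these also changed without Hic-5 siRNA. Dex siCHD9siNS called SMARCC1, SMARCE1 and SMARCD1 higher, with log2 differences of 0.44, 0.70 and 0.39 (edgeR adjusted p = 0.00404, 0.0243 and 0.0191). SMARCD3 was called lower there, at -0.64 (edgeR adjusted p = 0.0422), and BCL7A, BCL7B, BCL7C and SS18 did not pass. In vehicle siCHD9siNS, BCL7C held 29.3, 27.5 and 30.1 CPM, against 18.8, 20.2 and 22.02 CPM in siNSsiNS. SMARCC1, a scaffold protein of all SWI/SNF complexes, was called higher in 7 of 10 comparisons. It read 251, 246 and 206 CPM in the vehicle siHic5siNS libraries, against 120.4, 108 and 126 CPM in the vehicle siNSsiNS libraries, without overlap (log2 difference 0.98 ± 0.11, SE, edgeR adjusted p = 2.87e-08). The vehicle libraries labelled siCHD9siHic5 held 208, 217 and 216 CPM and those of siBRMsiHic5 166, 151 and 138 CPM, both above siNSsiNS, with log2 differences of 0.85 ± 0.11 (SE, edgeR adjusted p = 2.17e-07) and 0.36 ± 0.11 (SE, edgeR adjusted p = 0.00633). Its paralogue SMARCC2 changed less. SMARCC2 read 129, 132 and 117 CPM in the dex siHic5siNS libraries, against 92.8, 90.4 and 116 CPM in the dex siNSsiNS libraries, with a log2 difference of 0.34 ± 0.11 (SE, edgeR adjusted p = 0.00963). That call was lost without siNSsiNS dex replicate 1 or siNSsiNS dex replicate 2 (adjusted p up to 0.0631) and with length and GC offsets.

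The 3 SMARCD paralogues, of which each complex holds one, moved apart. SMARCD1 read 143, 151 and 136 CPM in the vehicle libraries labelled siCHD9siHic5, against 66.4, 65.8 and 61.4 CPM in the vehicle siNSsiNS libraries, higher without overlap with a log2 difference of 1.15 ± 0.12 (SE, edgeR adjusted p = 7.98e-09). The siHic5siNS vehicle libraries held 137, 146 and 127 CPM, a log2 difference of 1.08 ± 0.12 (SE, edgeR adjusted p = 2.87e-08), while siBRMsiHic5, with 68.98, 77.4 and 64.3 CPM, did not pass (adjusted p = 0.398). SMARCD3, the form known from heart and skeletal muscle, fell. Its values were 9.65, 9.18 and 9.79 CPM in the dex libraries labelled siCHD9siHic5, against 33.8, 33.8 and 26.9 CPM in the dex siNSsiNS libraries, a log2 difference of -1.72 ± 0.23 (SE, edgeR adjusted p = 5.09e-07). In vehicle it held 13.5, 14.3 and 9.92 CPM in siBRMsiHic5 and 12.7, 14.1 and 12.6 CPM in siHic5siNS, against 29.99, 37.1 and 25.01 CPM in siNSsiNS. Both groups lay below siNSsiNS, with log2 differences of -1.29 ± 0.22 (SE, edgeR adjusted p = 4.16e-05) and -1.23 ± 0.22 (SE, edgeR adjusted p = 4.93e-05). SMARCD2 read 66.6, 65.4 and 63.4 CPM in the vehicle siBRMsiHic5 libraries, against 76.1, 81.3 and 87.1 CPM in the vehicle siNSsiNS libraries, and the log2 difference of -0.32 ± 0.13 (SE, edgeR adjusted p = 0.0395) was lost without siNSsiNS replicate 2 or 3 or any 1 of the siBRMsiHic5 libraries (adjusted p up to 0.124).

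SMARCE1, the HMG-domain subunit, was called higher in 8 of 10 comparisons. It read 159, 175 and 164 CPM in the vehicle libraries labelled siCHD9siHic5, against 56.4, 53.02 and 78.7 CPM in the vehicle siNSsiNS libraries, a separated pair with a log2 difference of 1.40 ± 0.22 (SE, edgeR adjusted p = 6.21e-06). The siBRMsiHic5 vehicle libraries (154, 137 and 121 CPM) and the siHic5siNS ones (129, 132 and 119 CPM) also exceeded siNSsiNS. In siBRMsiNS the spread was wide, at 52.6, 85.8 and 123 CPM, and the difference did not pass (adjusted p = 0.162). These 3 values ran in the order of the ribosomal RNA share (0.612, 3.95 and 6.98%). The vehicle siBRMsiHic5 values ran in the reverse order of theirs (0.511, 4.82 and 5.76%), and the part of ribosomal RNA was not tested. The annotation names 7 pseudogenes of SMARCE1, and how reads shared with them were counted is not given in the sources used here. ACTL6A, an actin-related subunit shared with INO80-type complexes, read 82.8, 68.98 and 72.8 CPM in the dex siHic5siNS libraries, against 100.0, 98.8 and 95.9 CPM in the dex siNSsiNS libraries. It fell without overlap with a log2 difference of -0.39 ± 0.09 (SE, edgeR adjusted p = 0.00093). In vehicle siCHD9siNS it was higher without overlap, at 122, 111 and 114 CPM against 98.8, 91.5 and 90.6 CPM in siNSsiNS, a log2 difference of 0.30 ± 0.09 (SE, edgeR adjusted p = 0.0138). SS18, a subunit of BAF and non-canonical BAF that is fused to SSX in synovial sarcoma, read 46.3, 42.1 and 41.4 CPM in the dex siHic5siNS libraries, against 97.5, 102 and 80.9 CPM in the dex siNSsiNS libraries. This was the largest fall of SS18, at -1.11 ± 0.13 (SE, edgeR adjusted p = 4.65e-08), and siBRMsiHic5 held 56.4, 47.5 and 58.2 CPM in dex, also below siNSsiNS. ACTL6A in vehicle siCHD9siNS was not called without siCHD9siNS replicate 1 or siNSsiNS replicate 2 (adjusted p up to 0.0727) or in 3 of 10 other settings.

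The BCL7 proteins are small accessory subunits of SWI/SNF, and BCL7A showed the widest change of all members. It read 58.9, 82.4 and 51.9 CPM in the vehicle siHic5siNS libraries, against 7.98, 8.07 and 8.58 CPM in the vehicle siNSsiNS libraries. The lowest siHic5siNS library was several times the highest siNSsiNS library, and the log2 difference was 2.97 ± 0.22 (SE, edgeR adjusted p = 9.49e-11). With a second siRNA added the level was far lower: 9.91, 14.3 and 16.4 CPM in siBRMsiHic5 and 11.99, 14.5 and 15.1 CPM in libraries labelled siCHD9siHic5. Both still exceeded siNSsiNS, with log2 differences of 0.72 ± 0.21 (SE, edgeR adjusted p = 0.00607) and 0.76 ± 0.21 (SE, edgeR adjusted p = 0.00361). The siBRMsiHic5 call was lost without siBRMsiHic5 replicate 3 (adjusted p = 0.051). The single siBRMsiNS (5.51, 6.40 and 5.12 CPM) and siCHD9siNS (5.73, 4.08 and 7.25 CPM) knockdowns lay below siNSsiNS and did not pass in vehicle (adjusted p = 0.117 and 0.0595). In dex the siHic5siNS libraries held 58.8, 74.2 and 54.1 CPM, against 9.86, 8.38 and 7.55 CPM in siNSsiNS. Dex siBRMsiNS, with 4.95, 4.92 and 5.64 CPM, was called lower (log2 difference -0.73 ± 0.21, SE, edgeR adjusted p = 0.0284). The number of members called in that comparison depended on single libraries. Dex siCHD9siNS did not pass (log2 difference -0.54 ± 0.21, SE, edgeR adjusted p = 0.0777).

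BCL7B rose in the 3 conditions with Hic-5 siRNA. It read 67.5, 73.7 and 68.8 CPM in the dex siHic5siNS libraries, against 20.3, 22.2 and 20.97 CPM in the dex siNSsiNS libraries, a log2 difference of 1.73 ± 0.16 (SE, edgeR adjusted p = 2.09e-09). In vehicle the siBRMsiHic5 libraries held 49.4, 55.1 and 55.5 CPM and those labelled siCHD9siHic5 40.6, 46.2 and 42.04 CPM, against 20.01, 23.7 and 20.97 CPM in siNSsiNS. Neither group overlapped siNSsiNS, with log2 differences of 1.31 ± 0.16 (SE, edgeR adjusted p = 4.69e-07) and 1.00 ± 0.16 (SE, edgeR adjusted p = 7.82e-06). BCL7C read 32.7, 39.3 and 34.2 CPM in the dex libraries labelled siCHD9siHic5, against 18.4, 18.002 and 22.3 CPM in the dex siNSsiNS libraries, higher with a log2 difference of 0.85 ± 0.12 (SE, edgeR adjusted p = 1.88e-06). In siBRMsiHic5 it did not pass (adjusted p = 0.751 in vehicle and 0.927 in dex, edgeR). In vehicle siBRMsiNS it was lower, at 13.6, 18.01 and 14.8 CPM against 18.8, 20.2 and 22.02 CPM in siNSsiNS, a log2 difference of -0.40 ± 0.12 (SE, edgeR adjusted p = 0.0497). BRD9, the bromodomain subunit that marks non-canonical BAF, read 24.9, 27.3 and 28.6 CPM in the vehicle siBRMsiHic5 libraries, against 40.05, 43.9 and 32.04 CPM in the vehicle siNSsiNS libraries. Its log2 difference of -0.52 ± 0.16 (SE, edgeR adjusted p = 0.01) was lost without siNSsiNS replicate 2 (adjusted p = 0.0625). BCL7C in vehicle siBRMsiNS was not called without siNSsiNS replicate 1, 2 or 3 or siBRMsiNS replicate 1 or 3 (adjusted p up to 0.279) or in 4 of 10 other settings.

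The promoter of BCL7A is shown because this member rose most, and those of DPF3 and HELLS because DPF3 fell with dex and HELLS fell with proliferation genes. The windows run across 250 bases before and 50 after the RefSeq gene start on GRCh38.p14 (BCL7A chr12:122021634-122021933, plus strand, DPF3 chr14:72894052-72894351, minus strand, HELLS chr10:94545538-94545837, plus strand), 5′ to 3′ in gene direction, with capitals for matches to the E2F letters TTTCCCGC or TTTGGCGC on either strand.
BCL7A: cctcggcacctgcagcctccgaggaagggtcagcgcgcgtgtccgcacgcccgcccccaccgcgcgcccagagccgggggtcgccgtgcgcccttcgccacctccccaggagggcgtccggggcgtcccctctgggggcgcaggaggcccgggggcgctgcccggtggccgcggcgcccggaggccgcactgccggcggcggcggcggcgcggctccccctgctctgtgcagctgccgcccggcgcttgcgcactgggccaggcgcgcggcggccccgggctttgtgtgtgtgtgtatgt
DPF3: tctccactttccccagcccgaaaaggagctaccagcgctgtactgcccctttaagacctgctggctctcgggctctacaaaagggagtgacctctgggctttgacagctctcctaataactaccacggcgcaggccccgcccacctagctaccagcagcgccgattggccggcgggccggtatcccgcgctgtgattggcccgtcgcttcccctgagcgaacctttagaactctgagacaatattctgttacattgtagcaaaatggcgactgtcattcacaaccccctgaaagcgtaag
HELLS: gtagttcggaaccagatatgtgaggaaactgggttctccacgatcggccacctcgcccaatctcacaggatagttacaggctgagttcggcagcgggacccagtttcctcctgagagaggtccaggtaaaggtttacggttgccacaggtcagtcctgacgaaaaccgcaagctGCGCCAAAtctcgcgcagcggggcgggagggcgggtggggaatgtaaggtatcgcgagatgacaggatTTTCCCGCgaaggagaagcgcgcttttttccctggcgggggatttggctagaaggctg
HELLS holds 1 match to each of the E2F forms, which occur in 1.659% and 0.6592% of 27305 RefSeq promoters of that length. Of the 30 members with a promoter in that table, BRD7 also matched TTTCCCGC. The GR element core ACANNNTGT, read on both strands, was in 0 of the 30 and in 5.45% of all promoters. The GR half-site AGAACA was in 2 of 30 (INO80 and SMARCAD1) and in 14.85% of all. BCL7A has 44 CG dinucleotides in its window, DPF3 18 and HELLS 22, and the median over all promoters is 14. A match is a description of letters, not a bound site, and a window without one says nothing of the factor.

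Of the ISWI ATPases SMARCA1 changed and SMARCA5 hardly did. SMARCA1 read 42.8, 51.8 and 45.3 CPM in the vehicle siCHD9siNS libraries, against 77.2, 84.04 and 72.3 CPM in the vehicle siNSsiNS libraries, a log2 difference of -0.74 ± 0.10 (SE, edgeR adjusted p = 3.67e-06) with no overlap. The libraries labelled siCHD9siHic5 (54.8, 55.4 and 54.5 CPM) and siBRMsiHic5 (66.1, 55.1 and 62.2 CPM) were lower as well, with log2 differences of -0.50 ± 0.10 (SE, edgeR adjusted p = 0.0001) and -0.35 ± 0.10 (SE, edgeR adjusted p = 0.00446). siHic5siNS alone went up, at 98.9, 129 and 106 CPM and a log2 difference of 0.52 ± 0.10 (SE, edgeR adjusted p = 7.34e-05). SMARCA5, the more widely used ISWI ATPase, read 129, 133 and 124 CPM in the vehicle siCHD9siNS libraries, against 155, 158 and 137 CPM in the vehicle siNSsiNS libraries. Its log2 difference of -0.22 ± 0.08 (SE, edgeR adjusted p = 0.0379) was its single call in 10 comparisons and was lost with the replicate block (blocked edgeR adjusted p = 0.0746), with length and GC offsets and without siNSsiNS vehicle replicate 1, siCHD9siNS vehicle replicate 1, siNSsiNS vehicle replicate 2 or siCHD9siNS vehicle replicate 3 (adjusted p up to 0.152). SMARCA1 in vehicle siBRMsiHic5 was not called in 1 of 10 other settings.

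Of the ISWI partners, BPTF, RSF1 and BAZ2A fell in siBRMsiHic5. BPTF, the histone-reading subunit of the NURF complex, read 88.2, 94.99 and 82.4 CPM in the vehicle siBRMsiHic5 libraries, against 202, 181 and 187 CPM in the vehicle siNSsiNS libraries. The separation was -1.10 ± 0.11 (SE, edgeR adjusted p = 5.91e-08) on the log2 scale. siCHD9siNS, with 103, 108 and 119.5 CPM, was lower with a log2 difference of -0.79 ± 0.11 (SE, edgeR adjusted p = 8.76e-06), whereas siHic5siNS, with 234, 235 and 232 CPM, was higher with a log2 difference of 0.30 ± 0.11 (SE, edgeR adjusted p = 0.0257). RSF1, the partner of SMARCA5 in the RSF complex, read 36.2, 39.001 and 41.7 CPM in the vehicle siBRMsiHic5 libraries, against 98.2, 81.03 and 81.7 CPM in the vehicle siNSsiNS libraries, lower with a log2 difference of -1.16 ± 0.12 (SE, edgeR adjusted p = 8.69e-08). Its siHic5siNS vehicle values of 60.2, 51.01 and 65.9 CPM were below siNSsiNS too, with a log2 difference of -0.56 ± 0.12 (SE, edgeR adjusted p = 0.000366). BPTF in vehicle siHic5siNS was not called without siHic5siNS replicate 1 or 2 or siNSsiNS replicate 2 or 3 (adjusted p up to 0.0893).

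BAZ2A, a subunit of the nucleolar remodeling complex, read 144, 145 and 126 CPM in the vehicle siBRMsiHic5 libraries, against 216, 207 and 211 CPM in the vehicle siNSsiNS libraries, a log2 difference of -0.61 ± 0.11 (SE, edgeR adjusted p = 5.05e-05) without overlap. BAZ1A, the partner of SMARCA5 in the ACF and CHRAC complexes, rose in the Hic-5 siRNA conditions instead. It read 84.2, 62.2 and 86.7 CPM in the vehicle libraries labelled siCHD9siHic5, against 48.5, 48.7 and 52.8 CPM in the vehicle siNSsiNS libraries, a log2 difference of 0.64 ± 0.13 (SE, edgeR adjusted p = 0.000178). siBRMsiHic5 (73.5, 73.3 and 73.2 CPM) and siHic5siNS (79.3, 73.7 and 73.3 CPM) were higher than siNSsiNS by 0.55 and 0.59 and also passed. BAZ1B, a gene of the Williams syndrome region, was called in 0 of the 10 comparisons by edgeR, and in 0 at an unadjusted p under 0.05 or with the replicate block, with log2 differences between -0.11 and 0.25.

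INO80 itself was also called in 0 of the 10 comparisons by edgeR, at an unadjusted p under 0.05 or with the replicate block (log2 differences of -0.15 to 0.05), while the other ATPases of its family moved. SRCAP, which loads the histone variant H2A.Z, read 55.7, 52.1 and 51.1 CPM in the vehicle siBRMsiHic5 libraries, against 125, 112 and 100.2 CPM in the vehicle siNSsiNS libraries. The groups were separate, with a log2 difference of -1.09 ± 0.12 (SE, edgeR adjusted p = 1.74e-07). The annotated gene AC106886.5 shares 74.1% of the exonic bases of SRCAP on the same strand and had no row in the table. siCHD9siNS held 60.4, 72.2 and 73.7 CPM, lower with a log2 difference of -0.71 ± 0.12 (SE, edgeR adjusted p = 6.68e-05). EP400, the ATPase of the TIP60 acetyltransferase complex, read 142, 129.9 and 147 CPM in the vehicle siCHD9siNS libraries, against 184, 172 and 173 CPM in the vehicle siNSsiNS libraries, a log2 difference of -0.34 ± 0.08 (SE, edgeR adjusted p = 0.00159). siHic5siNS had EP400 higher in dex, with a log2 difference of 0.30 ± 0.08 (SE, edgeR adjusted p = 0.00194). Both EP400 calls were lost with length and GC offsets, under which the siCHD9siNS difference was 0.00. EP400 in vehicle siCHD9siNS was not called in 2 of 10 other settings. EP400 in dex siHic5siNS was not called in 2 of 10 other settings.

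The 4 other SNF2 family ATPases behaved apart from each other. HELLS, a helicase needed for DNA methylation in dividing cells, read 6.77, 3.03 and 9.04 CPM in the dex siHic5siNS libraries, against 16.9, 16.6 and 17.1 CPM in the dex siNSsiNS libraries, lower with a log2 difference of -1.42 ± 0.33 (SE, edgeR adjusted p = 0.000681). In vehicle it held 8.89, 3.43 and 9.98 CPM in siHic5siNS and 7.11, 5.31 and 10.7 CPM in libraries labelled siCHD9siHic5, against 14.9, 21.5 and 18.2 CPM in siNSsiNS. Both groups lay below every siNSsiNS library, with log2 differences of -1.29 ± 0.33 (SE, edgeR adjusted p = 0.00167) and -1.24 ± 0.33 (SE, edgeR adjusted p = 0.00229). siBRMsiHic5, with 9.83, 14.1 and 12.4 CPM, also lay below but did not pass (adjusted p = 0.133). A list of 19 proliferation genes moved with HELLS: its summed level was 1165 to 1880 CPM in siHic5siNS, 1862 to 2506 CPM in siCHD9siHic5 and 2441 to 2773 CPM in siBRMsiHic5, against 3488 to 3772 CPM in siNSsiNS. Of the 19, 16 fell and 0 rose in siHic5siNS (median log2 difference -1.03), 13 fell and 2 rose in siCHD9siHic5 and 6 fell and 0 rose in siBRMsiHic5. In siBRMsiNS 0 of the 19 were called (5 at an unadjusted p under 0.05), and in siCHD9siNS 4 rose and 3 fell. In these bulk samples fewer dividing cells and less RNA per cell cannot be told apart, and their part in the HELLS result was not tested.

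**Figure D3:**
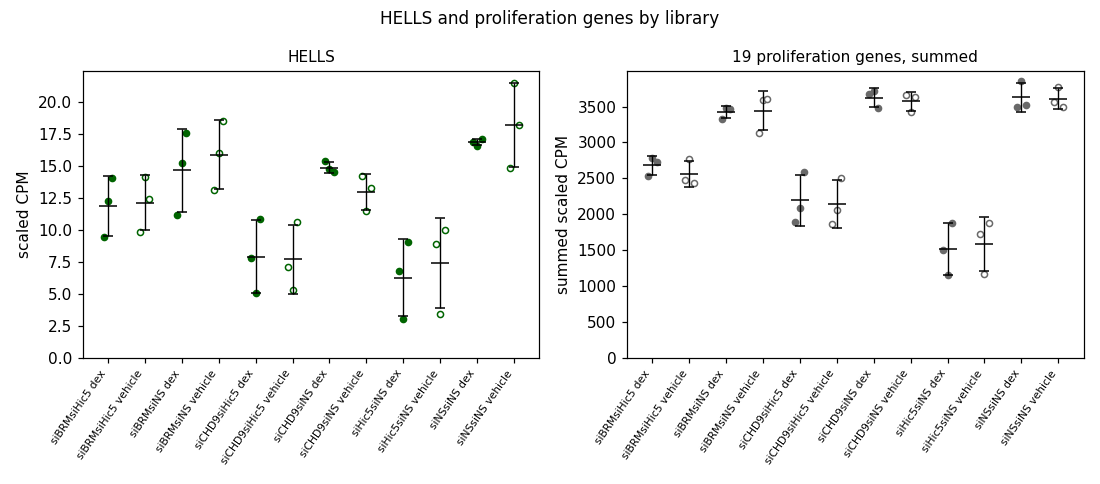
HELLS (left, scaled CPM) and the summed scaled CPM of 19 proliferation genes (right) in each of the 36 libraries, by siRNA condition, with filled points for dex and open points for vehicle; bars give the mean and SD of 3 libraries. HELLS is at or below 9.98 CPM in the siHic5siNS libraries and at or above 14.9 CPM in siNSsiNS, and the summed vehicle levels are 1165 to 1880 CPM in siHic5siNS and 3488 to 3772 CPM in siNSsiNS.

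ATRX, which with DAXX deposits histone H3.3 and is known to be lost as a protein in U2OS, read 117, 114 and 88.3 CPM in the vehicle siBRMsiHic5 libraries, against 195, 194 and 178 CPM in the vehicle siNSsiNS libraries. Transcript fell with a log2 difference of -0.83 ± 0.14 (SE, edgeR adjusted p = 2.15e-05) without overlap, and the libraries labelled siCHD9siHic5, at 256, 233 and 219.5 CPM, were higher with a log2 difference of 0.32 ± 0.13 (SE, edgeR adjusted p = 0.046). The second call was lost without any 1 of the siNSsiNS libraries or without siCHD9siHic5 replicate 1 or 2 (adjusted p up to 0.161). SMARCAD1, which acts in heterochromatin maintenance, read 95.8, 89.99 and 101 CPM in the vehicle siBRMsiHic5 libraries, against 125, 114 and 110.4 CPM in the vehicle siNSsiNS libraries, lower with a log2 difference of -0.29 ± 0.09 (SE, edgeR adjusted p = 0.00683). SMARCAL1, an annealing helicase of stalled replication forks, read 30.8, 29.04 and 30.1 CPM in the dex siBRMsiHic5 libraries, against 20.2, 17.6 and 23.8 CPM in the dex siNSsiNS libraries. Its log2 difference of 0.54 ± 0.20 (SE, edgeR adjusted p = 0.028) was lost without siNSsiNS dex replicate 1, siBRMsiHic5 dex replicate 1, siNSsiNS dex replicate 2 or siBRMsiHic5 dex replicate 3 (adjusted p up to 0.122).

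The 2 conditions with a second siRNA beside that for Hic-5 were next set against siHic5siNS in vehicle libraries, which asks what the second siRNA added and leaves siNSsiNS out. siBRMsiHic5 moved 24 members (2 higher, 22 lower) where 49.4% of all genes passed, and 24.2% of all genes were called lower. The 22 include SMARCA2, the siRNA target. The members' median log2 difference was -0.45, beside 0.02 over all genes. With offsets for transcript length and GC content the count was 20 (2 higher, 18 lower; 46.6% of all genes) and the median -0.24, beside 0.02 over all genes. BPTF was lower with a log2 difference of -1.40 ± 0.11 (SE, edgeR adjusted p = 2.41e-10) and SMARCD1 with a log2 difference of -0.96 ± 0.12 (SE, edgeR adjusted p = 1.94e-07). SMARCA4 differed with a log2 difference of -0.78 ± 0.13 (SE, edgeR adjusted p = 2.46e-05), so that both SWI/SNF ATPases were lower. DPF3 was higher, with a log2 difference of 2.46 ± 0.31 (SE, edgeR adjusted p = 4.03e-07). BCL7A had a log2 difference of -2.25 ± 0.21 (SE, edgeR adjusted p = 3.87e-09).

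Libraries labelled siCHD9siHic5 moved 13 members against siHic5siNS (6 higher, 7 lower), where 47.7% of all genes passed. CHD9 itself was higher in them than in siHic5siNS, with a log2 difference of 0.85 ± 0.18 (SE, edgeR adjusted p = 0.000335). SMARCA1 was lower with a log2 difference of -1.02 ± 0.10 (SE, edgeR adjusted p = 2.71e-09) and BCL7A with a log2 difference of -2.21 ± 0.21 (SE, edgeR adjusted p = 2.72e-09). For HELLS the log2 differences were 0.70 ± 0.33 (SE, edgeR adjusted p = 0.074) in siBRMsiHic5 and 0.05 ± 0.33 (SE, edgeR adjusted p = 0.911) in siCHD9siHic5, and neither passed. Both comparisons share the siHic5siNS libraries.

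The number of members called with dex depended on whether dex and vehicle libraries were paired: 0 in each condition without pairing, and 0 to 15 of the 36 with it. Without a term for each pair, edgeR called 0 members in each of the 6 conditions, where 0.501% of all genes passed in siBRMsiHic5, 0.382% in siBRMsiNS, 0.455% in siCHD9siHic5, 0.949% in siCHD9siNS, 0.876% in siHic5siNS and 0.343% in siNSsiNS. At an unadjusted p under 0.05 there were 9 members in siCHD9siNS, 3 in siBRMsiHic5, 1 each in siBRMsiNS, siCHD9siHic5 and siHic5siNS, and 0 in siNSsiNS. DESeq2 called 3 members in siCHD9siNS and limma 1, and each called 0 in the other 5 conditions. The dex and vehicle libraries of a replicate number varied together in all 6 conditions, so the fit with each such pair as a block is given beside it.

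With the block, 15 members passed in siCHD9siNS (12 higher, 3 lower) beside 24.1% of all genes. In siBRMsiHic5 3 passed (5.95% of all genes), in siBRMsiNS 3 (3.91%), in siCHD9siHic5 1 (4.74%), in siHic5siNS 1 (8.93%) and in siNSsiNS 0 (2.5%). In siNSsiNS 2 members had an unadjusted p under 0.05 in that fit. The siCHD9siNS count was 7 without replicate 1 and 7 with length and GC offsets, the siBRMsiNS count was 0 without replicate 1 or 2, and the siBRMsiHic5 count was 0 without replicate 3.

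DPF3 was the 1 member called lower with dex in more than 1 condition. In siHic5siNS it held 1.51, 0.980 and 1.33 CPM with dex and 2.68, 1.48 and 3.80 CPM with vehicle, lower in each of 3 pairs although the treatments overlapped, and the blocked log2 difference was -1.04 ± 0.18 (SE, blocked edgeR adjusted p = 0.00101). In siCHD9siNS it held 5.22, 4.13 and 4.23 CPM with dex and 9.83, 7.53 and 7.14 CPM with vehicle, groups that did not overlap (log2 difference -0.84 ± 0.13, SE, blocked edgeR adjusted p = 0.000417). The libraries labelled siCHD9siHic5 gave 2.88, 3.78 and 2.14 CPM with dex and 5.34, 5.56 and 4.22 CPM with vehicle (log2 difference -0.81 ± 0.14, SE, blocked edgeR adjusted p = 0.00212), and siBRMsiHic5 gave 11.8, 7.71 and 9.15 CPM with dex and 16.2, 12.5 and 15.3 CPM with vehicle (log2 difference -0.63 ± 0.12, SE, blocked edgeR adjusted p = 0.00405). These 2 conditions were also separated. Over all genes, dex and vehicle libraries did not overlap for 21.9% in siCHD9siNS, 8.52% in siCHD9siHic5 and 9.05% in siBRMsiHic5. In siBRMsiNS the treatments overlapped, at -0.23 ± 0.12 (SE, blocked edgeR adjusted p = 0.313). In siNSsiNS, with 2.27, 3.34 and 4.76 CPM with dex and 2.61, 3.97 and 4.52 CPM with vehicle, they overlapped as well and the blocked difference was -0.11 ± 0.15 (SE, blocked edgeR adjusted p = 0.877).

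The 12 members that rose with dex in siCHD9siNS were the ARID genes, PBRM1, SMARCC1, SMARCA2, SRCAP, EP400 and the ISWI partners BPTF, RSF1, BAZ1B and BAZ2A. The vehicle siCHD9siNS libraries also entered the comparison with siNSsiNS, so a low vehicle level of a gene enters both results. Among dex libraries SRCAP did not pass against siNSsiNS (log2 difference -0.13, edgeR adjusted p = 0.476), while BPTF was still called lower (-0.39, edgeR adjusted p = 0.0146). SRCAP held 91.3, 103 and 86.3 CPM with dex, against 60.4, 72.2 and 73.7 CPM with vehicle. BPTF held 149.6, 145 and 152 CPM with dex, against 103, 108 and 119.5 CPM with vehicle. Neither gene overlapped between treatments, and the blocked log2 differences were 0.44 ± 0.09 (SE, blocked edgeR adjusted p = 0.00196) for SRCAP and 0.44 ± 0.07 (SE, blocked edgeR adjusted p = 0.000417) for BPTF. The other 10 had blocked log2 differences between 0.13 for SMARCC1 and 0.36 for RSF1, and BCL7B, BCL7C and DPF3 fell. BPTF and RSF1 rose in siBRMsiHic5 too, with log2 differences of 0.31 ± 0.07 (SE, blocked edgeR adjusted p = 0.0108) and 0.26 ± 0.06 (SE, blocked edgeR adjusted p = 0.0187). SRCAP, BRD9 and SMARCC1 fell in siBRMsiNS, with a log2 difference of -0.32 ± 0.09 (SE, blocked edgeR adjusted p = 0.0495) in the first case. CHD9, the gene targeted in siCHD9siNS, held 89.2, 58.2 and 83.7 CPM with dex and 59.5, 51.5 and 69.4 CPM with vehicle there. The treatments overlapped, and the blocked log2 difference was 0.35 ± 0.09 (SE, blocked edgeR adjusted p = 0.00962). The part of the CHD9 level in the member changes of siCHD9siNS was not tested.

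SMARCA2 itself rose with dex in siCHD9siNS with a log2 difference of 0.30 ± 0.09 (SE, blocked edgeR adjusted p = 0.0261). In siNSsiNS the blocked difference of 0.29 ± 0.09 (SE, blocked edgeR adjusted p = 0.128) did not pass, and in both conditions the treatments overlapped.

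Whether the dex response differed between conditions was tested directly. Without the block, edgeR called 0 members in each of the 5 differences, with 0% of all genes called for siBRMsiNS, 0.00659% for siCHD9siNS and 0% for siHic5siNS, each minus siNSsiNS, and 0% for siBRMsiHic5 and 0% for siCHD9siHic5, each minus siHic5siNS. At an unadjusted p under 0.05 there were 6 members for siCHD9siNS, 1 for siHic5siNS, 1 for siBRMsiHic5 and 0 for the other two, and DESeq2 and limma each called 0. With the block 7 members passed for siCHD9siNS minus siNSsiNS (4.03% of all genes), 6 with a more positive response and DPF3 with a more negative one. With length and GC offsets added to the block, 0 members passed for that difference. In the other 4 differences the blocked fit called 0 members, with 3 at an unadjusted p under 0.05 for siBRMsiNS, 1 for siHic5siNS, 9 for siBRMsiHic5 and 1 for siCHD9siHic5. SRCAP had the largest positive difference, 0.58 ± 0.12 (SE, blocked edgeR adjusted p = 0.0236), and DPF3 had -0.74 ± 0.20 (SE, blocked edgeR adjusted p = 0.047). For CHD9 that difference was 0.32 ± 0.13 (SE, blocked edgeR adjusted p = 0.15), which did not pass.

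**Figure D4:**
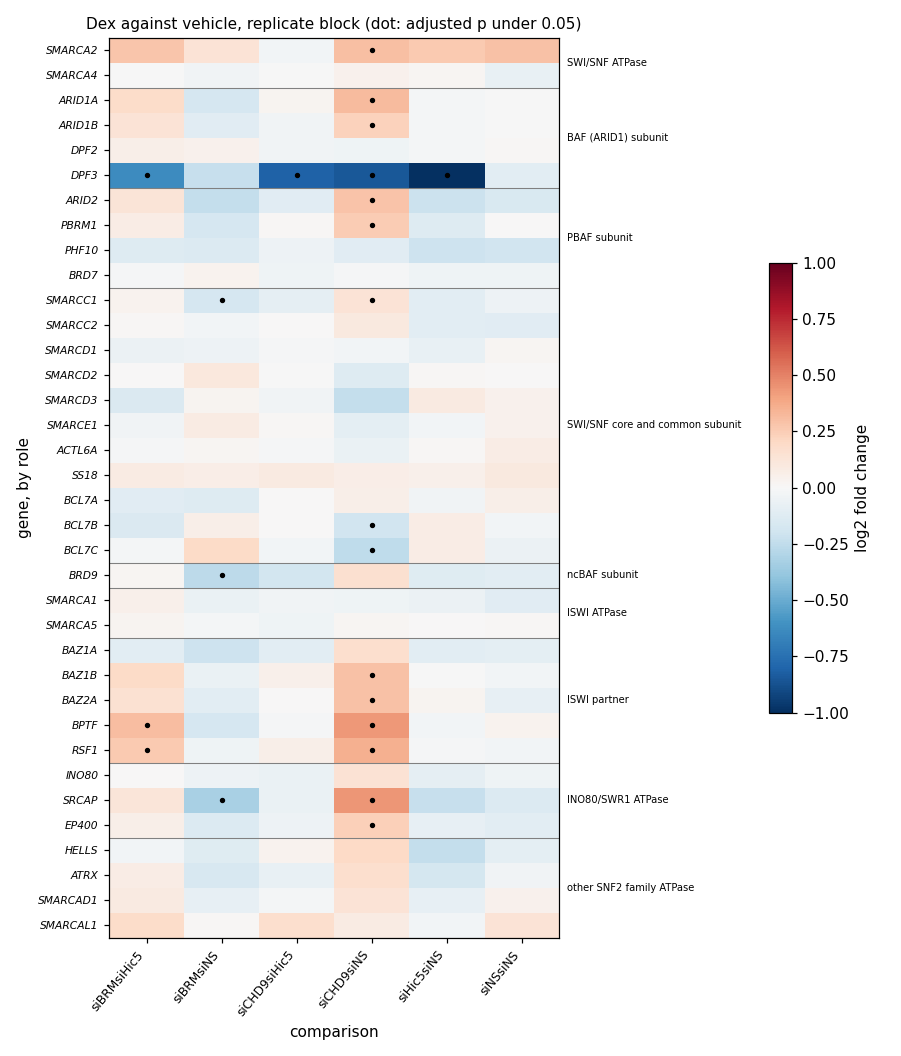
Log2 fold change of the 36 remodeler genes (rows, grouped by role) with dex against vehicle in each of the 6 siRNA conditions (columns), from the fit with each pair of dex and vehicle libraries as a block. Red is higher and blue lower with dex, the colour scale stops at 1 and -1 (DPF3 in siHic5siNS lies just beyond it, at -1.04), and dots mark an adjusted p under 0.05. The siCHD9siNS column holds 15 dots and the siNSsiNS column none.

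The members are long transcripts, and changes of all genes ran with transcript length in some comparisons. Of the 36, 19 lay in the longest length bin of tested genes (over 5151 bases), and the members' median length was 5580.5 bases, beside 3341 over all genes. In siCHD9siNS vehicle libraries the median log2 difference from siNSsiNS was -0.22 over all genes of the longest length bin and 0.24 over those of the shortest. The 19 members of the longest length bin had a median of -0.22. In siBRMsiHic5 the values were -0.20 for all genes of the longest length bin and 0.18 for the shortest, and -0.44 for the 19 members. With dex in siCHD9siNS they were 0.12 and -0.17, and 0.24 for the 19 members. With offsets for length and GC content in each library, chosen after seeing the data, siBRMsiHic5 called 25 members (8 higher, 17 lower; 48.7% of all genes) and siCHD9siNS 14 (6 higher, 8 lower; 28.6% of all genes). The members' median log2 difference was then -0.21 in siBRMsiHic5 (-0.01 over all genes) and 0.01 in siCHD9siNS (0.02 over all genes). The part of length in these member changes was not tested beyond that.

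**Figure D5:**
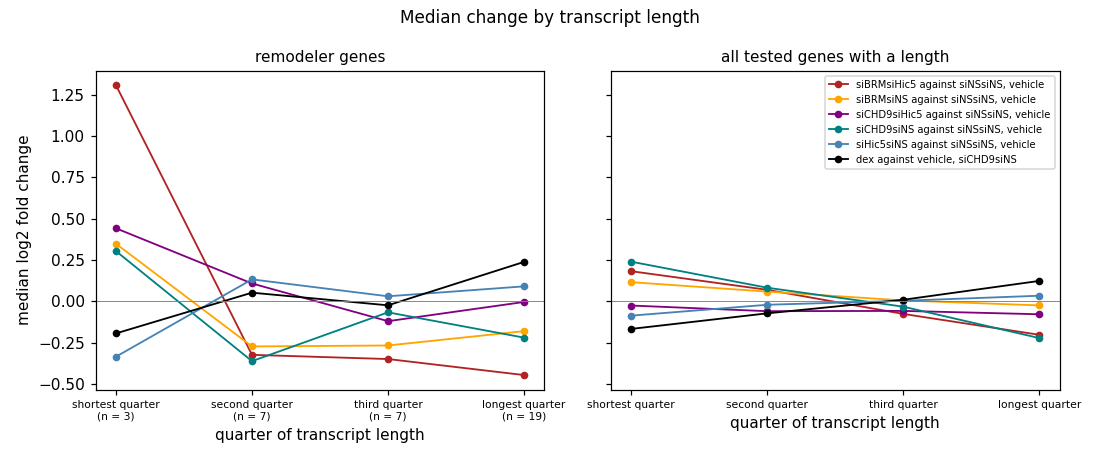
Median log2 fold change of the remodeler genes (left) and of all tested genes with a length (right) in 4 bins of transcript length, shortest to longest, for 5 siRNA conditions against siNSsiNS in vehicle and for dex against vehicle in siCHD9siNS; each line is 1 comparison. The left panel's shortest length bin holds 3 members, its longest 19, and over all genes siCHD9siNS declines to -0.22 in the longest length bin.

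A further list held 53 genes, made up of other subunits or partners of these complexes and other SNF2 family ATPases, and 48 were tested. In vehicle siBRMsiHic5 called 26 of them (11 higher, 15 lower; 48.9% of all genes), siCHD9siHic5 27 (12 and 15; 52.6%), siCHD9siNS 22 (10 and 12; 32.3%), siHic5siNS 23 (10 and 13; 53.1%) and siBRMsiNS 0 (6.45%), where 11 had an unadjusted p under 0.05 and the blocked fit called 2. INO80D, a subunit of the INO80 complex, fell with a log2 difference of -1.06 ± 0.15 (SE, edgeR adjusted p = 2.47e-06) in siBRMsiHic5, and NFRKB, of the same complex, with a log2 difference of -0.80 ± 0.12 (SE, edgeR adjusted p = 7.87e-06). TRRAP, the scaffold of the EP400 complex, fell with a log2 difference of -0.60 ± 0.10 (SE, edgeR adjusted p = 4.03e-05), while INO80C rose with a log2 difference of 1.02 ± 0.19 (SE, edgeR adjusted p = 7.14e-05). In siHic5siNS MEAF6 fell with a log2 difference of -0.94 ± 0.13 (SE, edgeR adjusted p = 1.72e-06) and ERCC6L, a mitotic SNF2 ATPase, with a log2 difference of -1.60 ± 0.24 (SE, edgeR adjusted p = 3.08e-06). RAD54L2 fell with a log2 difference of -1.42 ± 0.20 (SE, edgeR adjusted p = 9.6e-06) in siCHD9siNS and was the 1 gene of this list that dex changed there without the block, with a log2 difference of 0.87 ± 0.20 (SE, edgeR adjusted p = 0.027). RUVBL1, an ATPase shared by the INO80, SRCAP and EP400 complexes, rose in siCHD9siNS with a log2 difference of 0.72 ± 0.13 (SE, edgeR adjusted p = 0.000139).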

How the data were processed

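RNA-seq libraries of U2OS-GRα cells were analysed, 3 in each of 12 groups, grouped by the sample labels. The deposited table holds whole-number counts per gene. The file is named for normalised CPM values, but its columns sum to 27442282 to 47148257 and differ between libraries, so the values were treated as raw counts of the authors. Per the submitters' processing notes, TopHat2 2.1.1 and edgeR were used with GRCh38. No source used here names the counting tool, its annotation or its use of strand.

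Genes with over 1 CPM in at least 3 libraries were kept (15179 of 15186), scaled with upper-quartile factors and tested with edgeR 4.0.16 (quasi-likelihood, R 4.3.3) in 1 fit over all 36 libraries and 12 group means, with 24 residual degrees of freedom. P-values were adjusted by Benjamini-Hochberg over all tested genes, with 0.05 as the threshold for a call. Log2 differences are of counts after scaling. Dex and vehicle libraries of a replicate number were taken as pairs, because their deviations from the group means correlated in all 6 conditions (r between 0.458 and 0.922 over 18 pairs). The blocked fit of the dex comparisons, with a term for each pair, was therefore run as an alternative, with 12 residual degrees of freedom. For the siRNA comparisons the replicate block was another fit, with a term for the replicate number among the libraries of 1 treatment. By the same measure (r over 0.1 in all 3 pairs), same-numbered libraries of siCHD9siNS and siCHD9siHic5 paired with those of siNSsiNS in both treatments, and siCHD9siHic5 with siHic5siNS, while the other siRNA comparisons did not pair. The 36 pairs of libraries compared within groups differed beyond counting noise (lowest chi-square per degree of freedom 9.59).

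Alternatives were TMM, DESeq2 or no scaling factors, no filter, DESeq2 1.42.0, limma 3.58.1 on log2(CPM + 0.5), only the groups compared, the replicate block, offsets for gene length and GC content, and leaving out each library. Transcript lengths and overlaps came from GENCODE v29, and promoter sequences from RefSeq on GRCh38.p14, where 30 of the 37 listed genes matched. The procedure was tested on simulated data. The dex simulation, set in siCHD9siNS, had a shared effect of each pair built in. There 2.99% of 1.5-fold dex changes were recovered without pairing and 95.5% with the block. For 1.5-fold differences of dex responses the shares were 0% and 82.1%. At 2-fold, the fit without pairing recovered 92.5% of dex changes but 31.3% of differences of dex responses. Counts of 0 without pairing therefore say little of 1.5-fold or smaller dex changes, or of 2-fold or smaller differences of dex responses. In the siRNA simulation, set in vehicle siHic5siNS, the fit of 12 group means recovered 46.3% of 1.5-fold and 68.7% of 2-fold changes. Members and gene lists were chosen with earlier results of these data known. The naming rule asked for every library of SMARCA2, SMARCA4 and members called in any comparison, and up to 4 called genes per comparison from the list of 53 further genes. Every library is printed for SMARCA2 and SMARCA4, and for the other called members those of the comparisons described.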

Additional observations from a re-analysis of the deposited data

Results flagged for a closer look

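The dex response differed between siCHD9siNS and siNSsiNS for 7 members, beside 4.03% of all genes, by the interaction term of the fit with the replicate block (edgeR, adjusted over all tested genes). The log2 differences, siCHD9siNS minus siNSsiNS, were 0.58 for SRCAP (adjusted p = 0.0236), 0.40 for BPTF (0.0326), 0.38 for RSF1 (0.028), 0.37 for BAZ2A (0.0287), 0.35 for EP400 (0.0205) and 0.32 for BAZ1B (0.0364). DPF3 differed the other way, by -0.74 (adjusted p = 0.047). The vehicle siCHD9siNS libraries in this term are also those of the siRNA comparison with siNSsiNS, so these results are not independent. Without the block, 0 of these differences had an adjusted p under 0.05. With length and GC offsets added to the block, 0 members passed. Over all genes, the median of this difference was 0.12 in the longest length bin and -0.19 in the shortest. CHD9, the gene targeted in siCHD9siNS, was lower than in siNSsiNS in vehicle and overlapped siNSsiNS in dex, and its own difference was 0.32 (blocked edgeR adjusted p = 0.15).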

How the results depend on the processing

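Of 205 member calls between siRNA conditions, 142 were kept without any 1 library, 145 in all other settings and 128 in all. Leaving out 1 library gave 24 to 27 members called for siBRMsiHic5 in vehicle and 20 to 23 in dex, 1 to 12 and 1 to 15 for siBRMsiNS, 12 to 17 and 14 to 20 for siCHD9siHic5, 13 to 17 and 3 to 11 for siCHD9siNS, and 16 to 20 and 18 to 21 for siHic5siNS. Against siHic5siNS the ranges were 22 to 25 for siBRMsiHic5 and 10 to 12 for siCHD9siHic5. The siBRMsiNS count in vehicle was 11 by DESeq2, 0 when only the groups compared were fitted and 3 with the replicate block and length and GC offsets, and in dex it was 1 with only the groups compared. With dex in siCHD9siNS, where the fit without block called 0, DESeq2 size factors gave 1, no scaling 2, limma 1 and DESeq2 3.

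The replicate block gave 3 members with dex in siBRMsiHic5, 3 in siBRMsiNS, 1 in siCHD9siHic5, 15 in siCHD9siNS and 1 in siHic5siNS, and 7 for the difference between siCHD9siNS and siNSsiNS. With length and GC offsets added, those dex counts were 2, 1, 1, 7 and 2, and the block without scaling gave 1 in siBRMsiNS. The count of 7 for the difference between siCHD9siNS and siNSsiNS was 0 with the block and those offsets. Leaving out 1 pair moved the blocked counts to 7 to 15 in siCHD9siNS, 0 to 3 in siBRMsiNS and 0 to 2 in siBRMsiHic5. Between siRNA conditions, the deviations of all 3 pairs correlated above 0.1 in 4 of 10 comparisons with siNSsiNS and 1 of 2 with siHic5siNS. In those 5 the block lost the calls of SMARCA5 (vehicle siCHD9siNS), PBRM1 (dex siCHD9siHic5), and RSF1 and EP400 (siCHD9siHic5 against siHic5siNS; blocked adjusted p = 0.0503 and 0.0654), and changed no other member call. In the other siRNA comparisons the libraries shared only a number.

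A few values changed sign. EP400 went to 0.00056 in vehicle siCHD9siNS with length and GC offsets, and to 0.0615 for siCHD9siHic5 against siHic5siNS with those offsets and 0.0608 with the replicate block and offsets. SMARCA2 in dex libraries labelled siCHD9siHic5 ran between -0.22 and 0.0297 without 1 library, and was above 0 without siCHD9siHic5 replicate 2 or siNSsiNS replicate 3. The cause was not tested. With 3 libraries per group and a median biological coefficient of variation of 15.9%, differences of 2-fold or smaller may go uncalled.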
